A study of Mus musculus with 17 samples.

Results

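The potassium channel genes of the mouse were taken by name: every gene whose symbol starts with Kcn, together with *Abcc8* and *Abcc9*, that had at least 1 protein-coding transcript in the deposited tables. The rule found 96 of 55357 genes, and each was counted in all 17 samples. The study asked what the RNA-binding protein PCBP2 does in pancreatic β cells and how glucose changes these cells. Control cells came from male mice with the Cre recombinase under the rat insulin promoter (RIP-Cre) and the *Rosa26* tdTomato reporter, and the labels call them WT although they carry the Cre too. *Pcbp2* knockout cells came from male mice that also carried 2 floxed *Pcbp2* alleles, so that the gene was deleted where the insulin promoter had been active. Islets were cultured for 72 hours at 2.8 mM glucose, called low here, or at 16.7 mM, called high, and tdTomato-positive cells were then sorted by FACS. The age of these mice is not given with the samples. Polyadenylated RNA was sequenced from libraries made with an ultra-low-input kit.

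There were 3 samples of control cells at low glucose, 4 of control cells at high glucose and 5 of knockout cells at each concentration. Total estimated counts per sample had a median of 78152840 in control cells at low glucose (70712840 to 78719001), 68307923 in control cells at high glucose (65070242 to 69201359), 73279801 in knockout cells at low glucose (47385513 to 82419400) and 77964405 in knockout cells at high glucose (73336033 to 81769111). The channel genes took 0.2254% ± 0.0249 of the counts in control cells at low glucose (SD, n = 3) and 0.1787% ± 0.0317 at high glucose (SD, n = 4). In knockout cells they took 0.2306% ± 0.0298 at low and 0.2% ± 0.0192 at high glucose (SD, n = 5 each). None of the 96 was at 0 counts in every sample, 18 stayed under 10 counts in all samples, and 69 were tested among the 22784 genes that passed the filter on low counts.

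Potassium channels let potassium leave the cell and so hold the membrane potential negative. In the β cell, the ATP-sensitive channel closes when glucose metabolism raises ATP, the membrane depolarizes, calcium enters and insulin is released. Voltage-gated and calcium-activated channels then repolarize the membrane, two-pore-domain channels carry a background current, and inward rectifiers gated by G proteins answer to hormones and transmitters.

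Levels per sample are given in replicate order, as CPM, which are estimated counts divided by a library size that edgeR's TMM method adjusts, unless TPM, which divides by transcript length too, is named. *Pcbp2* itself was at 63.4, 73.4 and 50.7 CPM in control cells at low glucose and at 35, 45.4, 44.4 and 36.7 CPM at high glucose. *Pcbp2* in knockout cells was at 19.2, 17.5, 16.8, 15.5 and 18.2 CPM at low glucose and at 10, 5.81, 6.39, 8.48 and 7.61 CPM at high glucose. Every knockout sample was below every control sample, at either concentration (two-sided exact permutation tests, p = 0.0179 at low and p = 0.00794 at high glucose, the smallest p that these sample numbers allow).

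The β cell label was checked against markers. The summed CPM of 8 β cell markers, led by *Ins2*, was 118000 to 122000 in control cells at low glucose, 270000 to 523000 in control cells at high glucose, 66600 to 96900 in knockout cells at low glucose and 357000 to 473000 in knockout cells at high glucose. In all 17 samples this sum was above that of every list of markers of another cell type. *Mafa*, a transcription factor of mature β cells, was at 0.587 to 30.9 CPM and *Slc2a2*, the glucose transporter, at 50 to 684 CPM. Of these 8 markers, edgeR called 5 higher with glucose in control cells and 7 higher with glucose in knockout cells, none with the knockout at high glucose and 1 with the knockout at low glucose (*Ins1*, lower). *Ins1* was also the 1 gene called for the interaction of genotype and glucose among all genes tested. *Ins2* alone took 8.9 to 9.03% of the counts in control cells at low glucose, 18.2 to 25.67% in control cells at high glucose, 4.92 to 10.36% in knockout cells at low glucose and 20.67 to 24.75% in knockout cells at high glucose.

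RNA of other islet cells was present, and some of its markers were called lower with glucose, most of them in knockout cells. In control cells no α cell marker was called with glucose, and neither was *Ppy*. The 4 α cell markers, led by *Gcg*, summed to 637, 2560 and 1400 CPM in control cells at low glucose and to 262, 359, 297 and 1470 CPM at high glucose. In knockout cells they summed to 1470, 6530, 1980, 9200 and 5330 CPM at low glucose and to 372, 450, 175, 966 and 1320 CPM at high glucose, and 2 of 4 fell with glucose, *Gcg* among them. The 3 δ cell markers summed to 383, 250 and 390 CPM and to 245, 147, 214 and 335 CPM in control cells at low and high glucose, and to 496, 481, 829, 1200 and 1320 CPM and 342, 198, 340, 472 and 566 CPM in knockout cells, with 1 of 3 called lower by glucose in control cells (*Rbp4*) and 2 of 3 in knockout cells (*Hhex* and *Rbp4*). *Ppy*, the single marker of PP cells, was at 797, 835 and 825 CPM and at 318, 294, 224 and 631 CPM in control cells, and at 992, 1620, 1530, 2710 and 5110 CPM and 383, 505, 290, 833 and 1140 CPM in knockout cells, where it fell with glucose.

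Among cells from outside the endocrine lineage, the 3 macrophage markers, led by *Lyz2*, summed to 56.7, 7.36 and 26.5 CPM and to 1.58, 0.873, 6.98 and 10.1 CPM in control cells at low and high glucose, and to 125, 22.4, 87.4, 89.4 and 137 CPM and 0.599, 1.08, 1.78, 10.8 and 8.37 CPM in knockout cells, where all 3 fell with glucose. The endothelial markers (2 of 3 tested) and the 4 stellate and mural markers summed to at most 1.14 and 1.15 CPM in any sample, and none was called in any comparison. *Spp1* made up nearly all of the sum of the 3 ductal markers, which reached 801 CPM in 1 control sample at high glucose, while *Krt19* and *Sox9* stayed at or below 2.17 and 1.07 CPM and no ductal marker was called. Acinar markers (1 of 4 tested) reached 23.6 CPM and none was called. Of the Schwann cell markers (2 of 3 tested), 1 fell with glucose in both genotypes and *Sox10* was at 0 in all samples but 1. Of the erythroid markers (1 of 2 tested), *Hbb-bs* rose with glucose in both genotypes, at no more than 3.04 CPM summed. All 6 proliferation markers rose with glucose in knockout cells, and none of 6 was called elsewhere. None of the 5 sex-linked genes was called in any comparison. In bulk samples like these, fewer cells of a type and less RNA per cell cannot be told apart.

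Some libraries stood apart. On the first principal component of all genes, which separated the glucose concentrations, control replicates 1 to 3 and knockout replicates 1 to 3 at high glucose scored 90.9 to 99.1, while control replicate 4 scored 9.9 and knockout replicates 4 and 5 scored 21.4 and 33.2. Low-glucose samples scored from -105.5 to -42.4. A component computed from the tested channel genes alone gave the same libraries 1.37, 1.32 and 0.01 against 4.4 to 6.32 for the other samples at high glucose and -7.59 to -2.18 at low glucose. Counts of called genes are given with and without these 3 libraries. All 3 are high-glucose samples, picked because they scored nearest to the low-glucose samples. Leaving them out therefore favours glucose calls by the way they were picked, and glucose calls gained without them are not added evidence. The source of the replicates (mice, pools or culture dates) is not stated, so the p-values measure the spread between these samples and no more.

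In TPM, which allows levels to be compared between genes, a few channel genes made up nearly all of the channel RNA. The 5 most abundant held 87.3% of the channel TPM in control cells at low glucose, 85.9% in control cells at high glucose, 88.4% in knockout cells at low glucose and 86.2% in knockout cells at high glucose, and the 10 most abundant held 94.7 to 96.3%. *Abcc8*, the sulfonylurea receptor that regulates the ATP-sensitive channel, was first in every group, with means of 310, 180, 322 and 205 TPM in control low, control high, knockout low and knockout high samples, and 40.8% of the channel TPM averaged over groups. *Kcnip1*, a calcium-binding partner of A-type voltage-gated channels, had means of 181, 64.3, 200 and 53.5 TPM in the same order. *Kcnk16*, a two-pore channel found mainly in the pancreas, had 99.6, 134, 139 and 101 TPM. The range of mean ± SD of *Abcc8* crossed that of *Kcnk16* in control cells at high glucose and that of *Kcnip1* in knockout cells at low glucose, where the ranges of *Kcnip1* and *Kcnk16* crossed too. In the other 2 groups the 3 ranges were apart.

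Next by the mean over groups came *Kcnmb2*, a subunit of the large-conductance calcium-activated (BK) channel, with means of 35.9, 15.9, 35.9 and 16.4 TPM, and *Kcnk1*, a two-pore channel, with 15.5, 17, 18.8 and 17.3 TPM. The order differed by group: *Kcnk1* was above *Kcnmb2* in both high-glucose groups, and *Kcnj11* was above *Kcnk1* in both low-glucose groups. *Kcnj11*, the pore of the ATP-sensitive channel, had 18.0, 8.79, 23.5 and 9.56 TPM, so that its transcript stood far below that of its partner *Abcc8* in every group. *Kcnh6* (12.9, 10.6, 15.8 and 11.2 TPM) and *Kcnh2* (13.6, 3.58, 14.9 and 3.42 TPM) encode voltage-gated channels of the ERG type. *Kcnma1*, the BK pore, had 9.01, 8.15, 9.28 and 9.15 TPM, and *Kcnab3*, a β subunit of voltage-gated channels, had 8.14, 11.2, 6.09 and 8.73 TPM. Also among the 15 most abundant genes, *Kcnu1*, *Kcnip4* and *Kcnn3* had group means between 1.01 and 4.14 TPM, and *Kcnj5* had 4.35 and 1.68 TPM in control cells and 0.0533 and 0.0514 TPM in knockout cells. From 49 to 58 of the 96 genes were under 0.1 TPM on average, depending on the group.

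**Figure D1:**
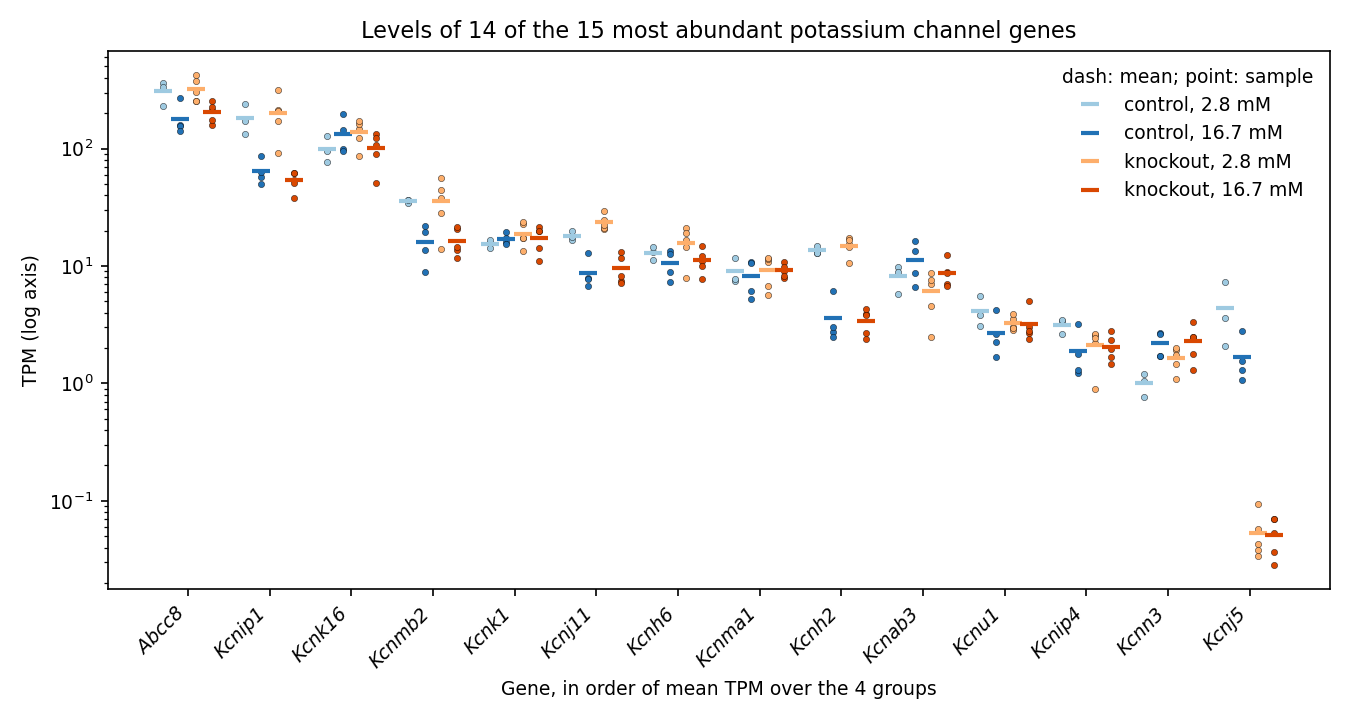
Level in TPM (log axis) of 14 of the 15 channel genes with the highest mean TPM, with a point for each of the 17 samples and a dash at the mean, by genotype and glucose concentration. *Abcc8* was first in every group, and *Kcnj5* had group means of 4.35 and 1.68 TPM in control cells and 0.0533 and 0.0514 TPM in knockout cells.

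The question of the first comparison is what 72 hours at high glucose did to the channel genes of control cells. The genes that rose belonged to most roles: *Kcnh1* 12.4-fold, *Abcc9* 7.84-fold, *Kcnn3* 4.21-fold and *Kcnk16* 2.46-fold, while *Kcnh2* (2.46-fold) and *Kcnc2* (1.74-fold) fell. A gene is said to rise or fall, or to be called, where the quasi-likelihood test of edgeR, fitted to all 17 samples and adjusted over all genes tested, gave a fold change above 1.5 with an adjusted p below 0.05. By this rule 12 of 69 tested channel genes were called (17.4%, against 13.8% of all genes tested), 10 higher (7.15% of all genes) and 2 lower (6.69% of all genes). The median log2 fold change of the 69 was 0.21, against 0.04 over all genes.

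The count for control cells depended on the samples and on the model. It was 14 (11 higher and 3 lower) without the 3 libraries apart, 7 when the control groups were fitted alone and 6 without control low-glucose replicate 2. It was 22 (15 higher and 7 lower) in the control groups alone with the replicate number as a block, which was used because the numbers of the control samples appeared to pair them, although high-glucose replicate 4 has no partner. The 5 genes lost in the control groups alone were *Kcnc2*, *Kcnh5*, *Kcnj8*, *Kcnk16* and *Kcnma1* (edgeR adjusted p = 0.155, 0.0774, 0.07, 0.0502 and 0.0523). The count over all genes moved too, from 3153 to 4898, 2522, 1382 and 5670 for the same 4 alternatives in that order. *Kcnip2* and *Kcnk6* were called higher both without the 3 libraries apart (2.46 and 1.49, edgeR adjusted p = 0.047 and 0.0203) and with the block (2.74 and 1.61, edgeR adjusted p = 0.00188 and 0.0153). In knockout cells, *Kcnip2* was also called higher with glucose without the 3 libraries apart (2.51, edgeR adjusted p = 0.0146). Leaving out knockout high-glucose replicate 5 alone gave that call as well (2.34, edgeR adjusted p = 0.0209). The calls of 2 of the 12 genes, *Kcnh2* and *Kcnn3*, held under every alternative tried.

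The scaling set the direction of many glucose differences, in both genotypes. TMM, which assumes that most genes do not change, put the median gene near 0, whereas total counts alone gave a median log2 fold change over all genes of -0.35 in control and -0.47 in knockout cells, and log2(TPM + 0.1) gave -0.56 and -0.71. The split of called channel genes in control cells moved from 10 higher and 2 lower to 5 and 5 with total counts and to 5 and 13 with log2(TPM + 0.1), while all genes went from 1629 higher and 1524 lower to 782 and 4055, and to 442 and 8460. In knockout cells it moved from 17 higher and 6 lower to 8 and 13, and to 2 and 20, while all genes went from 3056 higher and 2375 lower to 1482 and 6369, and to 656 and 11793. Rises and falls with glucose are therefore relative to the median gene, and a called gene whose sign turns is named as such. Other called genes kept their sign on log2(TPM + 0.1) and lost the call. In control cells these were *Kcnab3* (0.41), *Kcnh5* (0.5), *Kcnk1* (0.12) and *Kcnk16* (0.39). In knockout cells they were *Kcnma1* (0.03), *Kcnd1* (0.17), *Kcnh5* (0.25), *Kcnab2* (0.31), *Abcc9* (0.38), *Kcna2* (0.39), *Kcnn3* (0.41), *Kcng4* (0.43), *Kcnk10* (0.43) and *Kcnab3* (0.61), with limma adjusted p from 0.0497 to 0.915. The fall of *Kcnj8* with the knockout at high glucose lost its call there as well (-1.6, limma adjusted p = 0.108). For the knockout at low glucose the medians were 0.15 and 0.13 with these scalings, and for the interaction -0.1 and -0.18.

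The same question was asked of knockout cells. There, *Kcnf1* rose 118-fold, *Kcnh1* 20.6-fold, *Kcna2* 4.05-fold and *Kcnma1* 2.23-fold, while *Kcnip3* fell 7.56-fold and *Kcnh2* 2.19-fold. By edgeR, 23 of 69 channel genes were called (33.3%, against 23.8% of all genes), 17 higher (13.4% of all genes) and 6 lower (10.4% of all genes). The median log2 fold change was 0.42, against 0.01 over all genes. Without the 3 libraries apart the count was 29 (19 higher and 10 lower), and on log2(TPM + 1) it was 10, while over all genes it went from 5431 to 6390 and 8831. The calls of 5 of the 23 held under every alternative tried: *Kcnc2*, *Kcnh1*, *Kcnh2*, *Kcnip1* and *Kcnip3*.

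The next question is what the loss of *Pcbp2* did at each glucose concentration. At high glucose, 4 channel genes fell and none rose: the inward rectifier *Kcnj5* 43-fold, *Kcnj8* 45.8-fold, *Kcnk10* 7.76-fold and *Kcna2* 6.54-fold. These were 5.8% of the 69, against 1.71% of all genes called either way, 0.29% called higher and 1.42% called lower, and the median log2 fold change was 0.05, against 0.01 over all genes. At low glucose, 4 fell and none rose: *Kcnf1* 210-fold, *Kcnj5* 98.7-fold, *Kcna2* 20.9-fold and *Kcnk10* 12.9-fold. These were again 5.8% of the 69, against 2.04% of all genes called either way, 0.255% called higher and 1.78% called lower, with a median of -0.06 against 0.03. The call of *Kcnj8* at high glucose was lost without control high-glucose replicate 2 (-4.17, edgeR adjusted p = 0.117) or knockout high-glucose replicate 2 (-5.35, edgeR adjusted p = 0.0516). Without the 3 libraries apart, the counts were 5 (1 higher and 4 lower) at high and 4 (all lower) at low glucose, and over all genes they went from 389 to 587 and from 464 to 671. The paper names *Kcnj5*, *Kcnf1*, *Kcnk10* and *Kcna2* from these same samples, so their fall here is not independent evidence. The comparisons share samples with each other: control samples enter both the glucose and the knockout comparisons, and so do knockout samples.

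**Figure D2:**
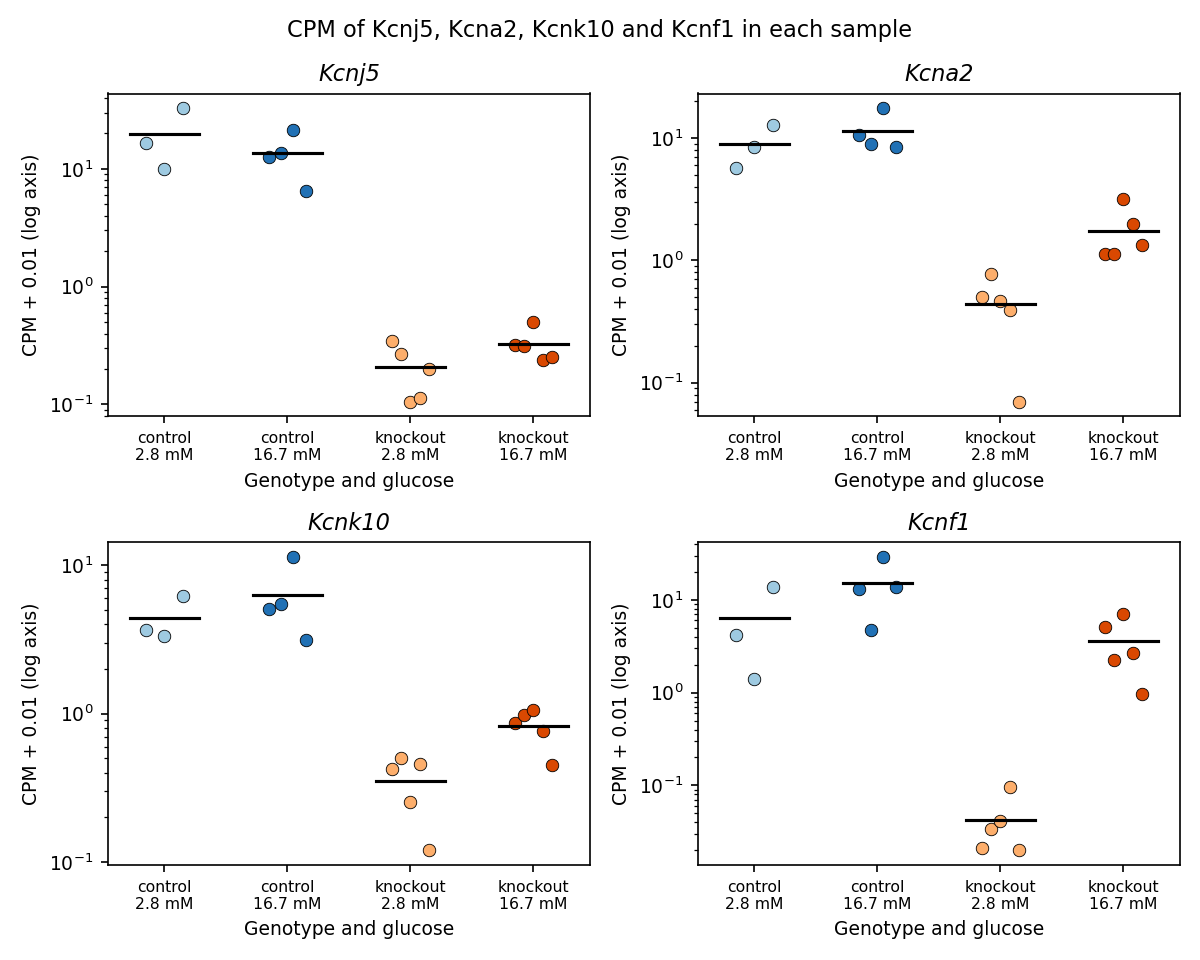
CPM + 0.01 (log axis) of *Kcnj5*, *Kcna2*, *Kcnk10* and *Kcnf1*, with a point for each of the 17 samples and a line at the group mean, by genotype and glucose concentration. *Kcnj5*, *Kcnk10* and *Kcna2* were below every control sample in every knockout sample, and *Kcnf1* was so at low glucose and overlapped at high glucose.

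The ATP-sensitive channel of the β cell is built of *Kcnj11* (ENSMUSG00000096146.3) pores and *Abcc8* (ENSMUSG00000040136.11) receptors. *Abcc8* was at 1400, 893 and 1220 CPM in control cells at low glucose and at 1330, 1030, 880 and 1390 CPM at high glucose. In knockout cells *Abcc8* was at 1090, 844, 1130, 1300 and 992 CPM at low glucose and at 1270, 1440, 1260, 1580 and 1510 CPM at high glucose. The control groups overlapped almost fully, and the knockout samples at high glucose were mostly above those at low glucose. The log2 fold changes of *Abcc8* by edgeR were -0.02 ± 0.19 (SE) for glucose in control cells (adjusted p = 0.971), 0.4 ± 0.16 for glucose in knockout cells (adjusted p = 0.0659), -0.13 ± 0.18 for the knockout at low glucose (adjusted p = 0.842) and 0.28 ± 0.17 at high glucose (adjusted p = 0.559). On log2(TPM + 0.1), *Abcc8* was called lower with glucose instead, at -0.8 in control cells and -0.64 in knockout cells (limma adjusted p = 0.0139 and 0.0116).

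*Kcnj11* was at 61.7, 51.2 and 50.5 CPM in control cells at low glucose and at 47.3, 34.5, 37.4 and 49.4 CPM at high glucose. *Kcnj11* in knockout cells was at 56, 54.9, 55, 74.1 and 71.4 CPM at low glucose and at 46.9, 42.9, 41.1, 59.5 and 67.3 CPM at high glucose. In control cells all high-glucose samples were below all low-glucose samples, and in knockout cells replicates 4 and 5, both of the libraries apart, lay within the low-glucose range. By edgeR the log2 fold change was -0.37 ± 0.19 (SE) with glucose in control cells (adjusted p = 0.197) and -0.27 ± 0.15 in knockout cells (adjusted p = 0.203), neither called. With total counts alone *Kcnj11* was called lower in both (-0.74 and -0.73, edgeR adjusted p = 0.0242 and 0.00484), and also on log2(TPM + 0.1) (-1.07 and -1.33, limma adjusted p = 0.00183 and 2.04e-05). For the knockout, *Kcnj11* gave 0.19 ± 0.18 at low and 0.29 ± 0.16 at high glucose (edgeR adjusted p = 0.73 and 0.533).

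*Kcnj8* (ENSMUSG00000030247.10) and *Abcc9* (ENSMUSG00000030249.16) encode the pore and receptor of the form known from vascular muscle, and both were scarce. *Kcnj8* was at 0, 0.0129 and 0.197 CPM in control cells at low glucose, at 0.204, 5.06, 1.75 and 0.132 CPM in control cells at high glucose, at 0.0447, 0, 0, 0.052 and 0.00999 CPM in knockout cells at low glucose, and at 0, 0.0161, 0.0462, 0.0134 and 0.103 CPM in knockout cells at high glucose. The high values were those of control high-glucose replicates 2 and 3, with 284 and 104 counts, and no other library held more than 18 counts. *Kcnj8* rose with glucose in control cells by a log2 fold change of 4.61 ± 1.34 (SE, edgeR adjusted p = 0.0258) and fell with the knockout at high glucose (-5.52 ± 1.17, edgeR adjusted p = 0.0163). The rise was lost without control low-glucose replicate 1 or 2 or control high-glucose replicate 2 (edgeR adjusted p = 0.0957, 0.115 and 0.127), and the fall without control or knockout high-glucose replicate 2 (edgeR adjusted p = 0.117 and 0.0516). The rise was also lost when the control groups were fitted alone (4.6, edgeR adjusted p = 0.07). Without control high-glucose replicate 2 the values were 3.26 and -4.17, without control low-glucose replicate 3, which held 18 of the low-glucose control counts against 0 and 1 in the others, the rise was 7.82, and without the 3 libraries apart the fall was -6.66, so the size of both depended on single libraries.

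*Abcc9* was at 0.393, 0.232 and 0.449 CPM in control cells at low glucose and at 1.9, 4.26, 4.38 and 0.763 CPM at high glucose. *Abcc9* in knockout cells was at 0.458, 0.235, 0.339, 0.33 and 0.0599 CPM at low glucose and at 1.69, 1.28, 1.37, 0.938 and 0.732 CPM at high glucose. All high-glucose samples were above all low-glucose samples of their genotype, the libraries apart least so. *Abcc9* rose by 2.97 ± 0.62 in control cells and by 2.08 ± 0.49 in knockout cells (log2, SE, edgeR adjusted p = 0.00453 and 0.00347). *Kcnj8* and *Abcc9* were highest in control high-glucose replicates 2 and 3, where the endothelial markers summed to 1.09 and 0.89 CPM, the stellate and mural markers to 0.695 and 0.571 CPM, and the ductal markers, nearly all *Spp1*, to 801 and 258 CPM. The endothelial sum and the stellate and mural sum were highest, at 1.14 and 1.15 CPM, in control high-glucose replicate 1, where *Kcnj8* was at 0.204 CPM, and the part of such cells in the result was not tested. Of the 4 genes of ATP-sensitive channels, 2 were called higher with glucose in control cells, 1 higher in knockout cells, 1 lower with the knockout at high glucose and none with the knockout at low glucose. In that order these were 50, 25, 25 and 0%, against 13.8, 23.8, 1.71 and 2.04% of all genes.

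Among the other inward rectifiers, 10 of 13 genes were tested. *Kcnj5* (ENSMUSG00000032034.7), a channel opened by G proteins, was at 16.7, 9.95 and 32.7 CPM in control cells at low glucose and at 12.7, 13.6, 21.5 and 6.53 CPM at high glucose. *Kcnj5* in knockout cells was at 0.335, 0.258, 0.0954, 0.104 and 0.19 CPM at low glucose and at 0.308, 0.305, 0.493, 0.228 and 0.244 CPM at high glucose. No knockout sample came near the lowest control sample. The log2 fold change with the knockout was -6.63 ± 0.48 (SE) at low and -5.43 ± 0.45 at high glucose (edgeR adjusted p = 5.77e-07 and 1.23e-06). With glucose it was -0.54 ± 0.42 in control cells and 0.66 ± 0.42 in knockout cells, neither called (edgeR adjusted p = 0.432 and 0.272), and on log2(TPM + 0.1) *Kcnj5* was called lower with glucose in control cells (-1.23, limma adjusted p = 0.0125).

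*Kcnj3*, which forms mixed channels with *Kcnj5*, was at most 0.296 CPM in control samples, at 0.257, 1.07, 0.466, 0.538 and 0.799 CPM in knockout cells at low glucose and at 0.12, 0.353, 0.0154, 0.281 and 0.103 CPM in knockout cells at high glucose. The knockout groups overlapped, with the highest values in low-glucose replicates 2 and 5. *Kcnj3* fell with glucose in knockout cells by 1.83 ± 0.61 (log2, SE, edgeR adjusted p = 0.0298), a call that was lost without low-glucose replicate 2 or 5 or high-glucose replicate 1, 3 or 5 (edgeR adjusted p = 0.0818, 0.0558, 0.0689, 0.0571 and 0.0633) and without the 3 libraries apart (-1.97, edgeR adjusted p = 0.0618). In the main fit of edgeR, no other gene of this group was called with glucose in knockout cells, and none with glucose in control cells. With glucose the calls were 0% of the 10 genes in control cells and 10% in knockout cells, against 13.8 and 23.8% of all genes. *Kcnj12* was at 3.37, 0.993 and 2.26 CPM and at 0.797, 0.196, 0.756 and 5.13 CPM in control cells at low and high glucose, the last being a library apart. In control cells it was called lower with the replicate block (-1.96, edgeR adjusted p = 0.000573) and without the 3 libraries apart (-1.95, edgeR adjusted p = 0.031). Without these libraries *Kcnj12*, *Kcnj10* and *Kcnj14* were called lower with glucose in knockout cells (-1.67, -2.01 and -4.16, edgeR adjusted p = 0.0339, 0.0452 and 0.0243). *Kcnj2*, *Kcnj6*, *Kcnj10* and *Kcnj14* were called lower in knockout cells with total counts alone (-1.56, -0.9, -1.63 and -2.61, edgeR adjusted p = 0.00811, 0.0125, 0.0401 and 0.0462). DESeq2 called *Kcnj2* lower in knockout cells (-1.06, DESeq2 adjusted p = 0.0433). On log2(TPM + 0.1), *Kcnj2* and *Kcnj14* were called lower in control cells (-0.8 and -0.93, limma adjusted p = 0.0354 and 0.00102). That scale called *Kcnj2*, *Kcnj6* and *Kcnj14* lower in knockout cells (-1.03, -1.22 and -0.63, limma adjusted p = 0.00145, 0.000619 and 0.00254). With the knockout, *Kcnj5* was the 1 of 10 called at either concentration (10%, against 2.04% of all genes at low and 1.71% at high glucose). At low glucose *Kcnj3* was called higher on log2(TPM + 0.1) (1.17, limma adjusted p = 0.029) and with the replicate block (1.93, edgeR adjusted p = 0.0295). *Kcnj13* was called lower at low glucose with the block (-3.06, edgeR adjusted p = 0.00595).

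Of the two-pore-domain genes, 10 of 14 were tested. *Kcnk10* (ENSMUSG00000033854.11), a background channel that responds to stretch and lipids, was at 3.67, 3.31 and 6.16 CPM in control cells at low glucose and at 5.07, 5.5, 11.4 and 3.14 CPM at high glucose. *Kcnk10* in knockout cells was at 0.413, 0.493, 0.244, 0.451 and 0.11 CPM at low glucose and at 0.855, 0.963, 1.05, 0.75 and 0.437 CPM at high glucose. Every knockout sample was below every control sample. *Kcnk10* fell with the knockout by 3.68 ± 0.45 at low and 2.96 ± 0.42 at high glucose (log2, SE, edgeR adjusted p = 7.25e-05 and 0.000464). It rose with glucose in knockout cells by 1.25 ± 0.4 (edgeR adjusted p = 0.0252), which was lost without low-glucose replicate 3 or 5 or high-glucose replicate 2 or 3 (edgeR adjusted p = 0.06, 0.051, 0.0542 and 0.0613). In control cells the value was 0.52 ± 0.46 (edgeR adjusted p = 0.495), 0.71 and called with the replicate block (edgeR adjusted p = 0.0212), and -0.09 on log2(TPM + 0.1) without a call.

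*Kcnk16* (ENSMUSG00000023387.9) was at 131, 101 and 74.8 CPM in control cells at low glucose and at 422, 277, 175 and 131 CPM at high glucose. *Kcnk16* in knockout cells was at 142, 109, 140, 161 and 110 CPM at low glucose and at 276, 199, 257, 155 and 91.3 CPM at high glucose. The libraries apart held the lowest values of both high-glucose groups, which overlapped with low glucose through them. *Kcnk16* rose in control cells by 1.3 ± 0.37 (log2, SE, edgeR adjusted p = 0.0244), which was lost without control low-glucose replicate 2 or 3 or high-glucose replicate 1 or 2 (edgeR adjusted p = 0.0914, 0.0976, 0.0883 and 0.0566). In knockout cells the value was 0.56 ± 0.3 (edgeR adjusted p = 0.172), called without high-glucose replicate 5 (0.74, adjusted p = 0.0486) and without the 3 libraries apart (0.84, adjusted p = 0.0129). On log2(TPM + 0.1) its sign in knockout cells turned, without a call.

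*Kcnk1* was at 30.3, 33.5 and 27.9 CPM in control cells at low glucose and at 63.1, 75.3, 52.6 and 49.9 CPM at high glucose. *Kcnk1* in knockout cells was at 34.8, 41.9, 27.1, 37.6 and 28.9 CPM at low glucose and at 86.3, 80.5, 76.1, 48.5 and 40.9 CPM at high glucose. High-glucose samples were above low-glucose samples with the exception of knockout replicate 5. *Kcnk1* rose by 0.98 ± 0.24 in control cells and by 0.96 ± 0.19 in knockout cells (log2, SE, edgeR adjusted p = 0.0101 and 0.00108), and the knockout value turned to -0.13 on log2(TPM + 0.1). *Kcnk13* rose in knockout cells by 1.00 ± 0.36 (edgeR adjusted p = 0.0454), turned to -0.09 on log2(TPM + 0.1), and lost its call without low-glucose replicate 1, 2, 3 or 5 (edgeR adjusted p = 0.0752, 0.102, 0.0545 and 0.0893) or high-glucose replicate 1 or 2 (0.124 and 0.138) and with the replicate block (0.0672).

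*Kcnk3*, an acid-sensitive background channel, was at most 0.983 CPM in control samples, at 0.603, 2.87, 0.891, 1.75 and 2.77 CPM in knockout cells at low glucose and at 0.394, 0.144, 0.339, 0.616 and 0.899 CPM at high glucose. The high values were those of knockout low-glucose replicates 2, 4 and 5, and the groups overlapped slightly. *Kcnk3* fell with glucose in knockout cells by 1.88 ± 0.6 (log2, SE, edgeR adjusted p = 0.0232), which was lost without low-glucose replicate 2 or 5 or high-glucose replicate 1, 2 or 3 (edgeR adjusted p = 0.0595, 0.055, 0.0539, 0.0577 and 0.0576). In control cells *Kcnk3* was called lower with the replicate block alone (-1.61, edgeR adjusted p = 0.0355). Of the 10 two-pore genes tested, 2 were called higher with glucose in control cells, 3 higher and 1 lower in knockout cells, and 1 lower with the knockout at each concentration. With glucose these were 20 and 40%, against 13.8 and 23.8% of all genes. With the knockout they were 10%, against 2.04% at low and 1.71% at high glucose. DESeq2 called *Kcnk9* lower with the knockout at low and high glucose (-1.8 and -1.62, DESeq2 adjusted p = 0.0369 and 0.0407). So did edgeR at high glucose without control high-glucose replicate 4 (-1.84, edgeR adjusted p = 0.047). The replicate block called *Kcnk13* higher there (1.25, edgeR adjusted p = 0.0388).

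Of the pore-forming voltage-gated genes, 22 of 30 were tested. *Kcna2* (ENSMUSG00000040724.6), a delayed rectifier best known from nerve axons, was at 5.68, 8.46 and 12.9 CPM in control cells at low glucose and at 10.7, 8.89, 17.6 and 8.46 CPM at high glucose. *Kcna2* in knockout cells was at 0.491, 0.763, 0.456, 0.382 and 0.0599 CPM at low glucose and at 1.13, 1.12, 3.17, 1.97 and 1.32 CPM at high glucose. Every knockout sample was below every control sample, and within the knockout every high-glucose sample was above every low-glucose sample. *Kcna2* fell with the knockout by 4.39 ± 0.52 at low and 2.71 ± 0.47 at high glucose (log2, SE, edgeR adjusted p = 5.23e-05 and 0.00299) and rose with glucose in knockout cells by 2.02 ± 0.46 (edgeR adjusted p = 0.0027). In control cells its glucose difference was 0.34 ± 0.51 (edgeR adjusted p = 0.72), which turned to -0.43 on log2(TPM + 0.1) without a call.

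*Kcnh1* (ENSMUSG00000058248.13), a channel of the EAG type, was at 0.266, 0.516 and 0.842 CPM in control cells at low glucose and at 8.04, 7.7, 6.52 and 4.65 CPM at high glucose. *Kcnh1* in knockout cells was at 0.491, 0.657, 0.774, 0.659 and 0.659 CPM at low glucose and at 19.8, 21.8, 15.2, 6.82 and 3.28 CPM at high glucose. No low-glucose sample reached any high-glucose sample, and within each genotype the libraries apart were lowest at high glucose. *Kcnh1* rose by 3.63 ± 0.55 in control cells and by 4.36 ± 0.45 in knockout cells (log2, SE, edgeR adjusted p = 0.000696 and 5.06e-06). The knockout at high glucose was not called for *Kcnh1* in the main fit of all samples. It was called higher without the 3 libraries apart (1.35, edgeR adjusted p = 0.0235). The replicate block, which kept those libraries, called it higher too (1.14, edgeR adjusted p = 0.0253). The 6 proliferation markers, led by *Top2a*, summed to 5.92, 4.13 and 3.99 CPM and to 62.2, 39.1, 9.65 and 8.19 CPM in control cells at low and high glucose, and to 7.69, 4.58, 6, 12.8 and 4.07 CPM and 228, 130, 272, 49.4 and 2.18 CPM in knockout cells. They were lowest in the same libraries within each high-glucose group as *Kcnh1* was, and their relation was not tested.

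*Kcnh2* (ENSMUSG00000038319.15), the ERG channel of the heart's repolarizing current, was at 58.3, 55.9 and 50.1 CPM in control cells at low glucose and at 23.4, 17.2, 14.9 and 33.5 CPM at high glucose. *Kcnh2* in knockout cells was at 64.3, 54.7, 52.3, 46.4 and 41.7 CPM at low glucose and at 22.9, 27, 16.8, 27.6 and 24.1 CPM at high glucose. High-glucose samples were below low-glucose samples in both genotypes. *Kcnh2* fell by 1.3 ± 0.23 in control cells and by 1.13 ± 0.19 in knockout cells (log2, SE, edgeR adjusted p = 0.00166 and 0.000294). Its relative *Kcnh6* was at 34 to 44.8 CPM and 40.2 to 79.4 CPM in control cells at low and high glucose and at 28.4 to 53.4 CPM and 46.8 to 88.1 CPM in knockout cells, with glucose values of 0.56 in control cells, called with the replicate block (0.66, edgeR adjusted p = 0.00478), and 0.61 ± 0.23 in knockout cells (edgeR adjusted p = 0.0523), called higher in 9 alternatives, among them that without the 3 libraries apart (0.8, edgeR adjusted p = 0.00975). On log2(TPM + 0.1) *Kcnh6* turned to -0.32 in control and -0.46 in knockout cells, without a call.

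*Kcnc2*, a fast delayed rectifier, was at 3.63, 2.45 and 2.06 CPM and at 1.04, 1.53, 1.44 and 2.21 CPM in control cells at low and high glucose, and at 3.03, 3.53, 3.9, 3.52 and 3.26 CPM and 1.39, 1.8, 1.31, 1.69 and 1.49 CPM in knockout cells. The control groups overlapped through high-glucose replicate 4, and the knockout groups did not overlap. *Kcnc2* fell by 0.8 ± 0.27 in control cells and by 1.17 ± 0.22 in knockout cells (log2, SE, edgeR adjusted p = 0.0497 and 0.000769). The call in control cells was lost without low-glucose replicate 1 or 2 or high-glucose replicate 1, 2 or 3 (edgeR adjusted p = 0.284, 0.0953, 0.126, 0.1 and 0.108) and without the filter on low counts (0.14).

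*Kcnh5*, also of the EAG type, was scarce, at 0.0579 to 0.164 CPM and 0.151 to 1.73 CPM in control cells at low and high glucose and at 0 to 0.123 CPM and 0.18 to 0.385 CPM in knockout cells. It rose by 2.62 ± 0.85 in control cells and 2.18 ± 0.7 in knockout cells (log2, SE, edgeR adjusted p = 0.0428 and 0.0249). Control high-glucose replicate 4 held 118 counts against 9 to 23 in the others of its group, and the control value was 1.44 without it and 1.41 without the 3 libraries apart (edgeR adjusted p = 0.198 and 0.231). The first call was lost without control low-glucose replicate 1, 2 or 3 or high-glucose replicate 1 or 4 (edgeR adjusted p = 0.156, 0.145, 0.0611, 0.0577 and 0.198) and with the replicate block (0.138), and the other without knockout high-glucose replicate 3 (0.0507). *Kcnd1*, an A-type channel, and *Kcnb2*, a delayed rectifier, rose with glucose in knockout cells, by 1.19 ± 0.29 and 0.82 ± 0.28 (edgeR adjusted p = 0.00515 and 0.0329), and *Kcnb2* turned to -0.04 on log2(TPM + 0.1) and lost its call without low-glucose replicate 1, 3 or 4 (edgeR adjusted p = 0.0668, 0.0734 and 0.0559) or high-glucose replicate 2 or 3 (0.061 and 0.0685), without the 3 libraries apart (0.83, adjusted p = 0.0692) and with the knockout groups fitted alone (0.82, adjusted p = 0.0574).

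Of the 22 voltage-gated pore genes tested, 2 were called higher and 2 lower with glucose in control cells, 5 higher and 2 lower in knockout cells, and 1 lower with the knockout at each concentration. With glucose these were 18.2 and 31.8%, against 13.8 and 23.8% of all genes. With the knockout they were 4.55%, against 2.04% at low and 1.71% at high glucose.

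**Figure D3:**
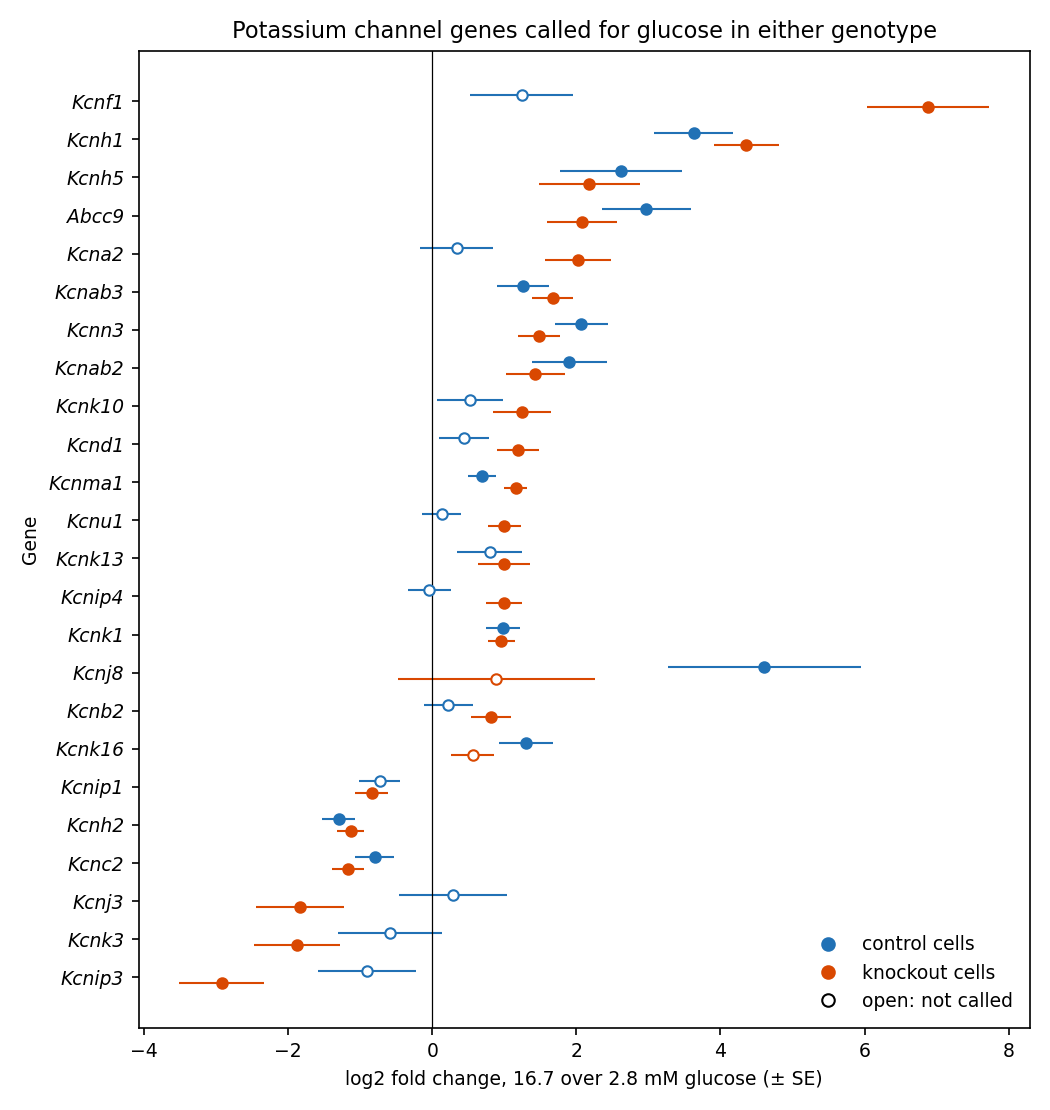
Log2 fold change (points, with SE bars, open where not called) with high against low glucose in control and in knockout cells, from edgeR with TMM scaling, for the channel genes called in either genotype, except *Kcng4*, whose low-glucose knockout samples were all at 0. *Kcnh1* rose and *Kcnh2* fell in both. Of the called values, *Kcnma1* in control cells and *Kcnk1*, *Kcnk13*, *Kcnb2*, *Kcnip4* and *Kcnu1* in knockout cells changed sign on log2(TPM + 0.1), as did some uncalled values.

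Silent subunits form no channel of their own and modify voltage-gated pores that they join, and 4 of 10 were tested. *Kcnf1* (ENSMUSG00000051726.7) was at 4.14, 1.38 and 13.8 CPM in control cells at low glucose and at 13.1, 4.72, 29.2 and 13.8 CPM at high glucose. *Kcnf1* in knockout cells was at 0.0112, 0.0235, 0.0318, 0.0867 and 0.00999 CPM at low glucose and at 5.13, 2.22, 7.1, 2.64 and 0.964 CPM at high glucose. At low glucose it was near 0 in every knockout sample, and at high glucose the knockout samples overlapped with the control samples.

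*Kcnf1* fell with the knockout at low glucose by 7.72 ± 0.89 (log2, SE, edgeR adjusted p = 4.37e-05) and rose with glucose in knockout cells by 6.88 ± 0.85 (edgeR adjusted p = 1.96e-05). In the size of this fall, control replicate 3 weighed most, at 13.8 CPM against 4.14 and 1.38 CPM in the other low-glucose controls. At high glucose the knockout value was -2.08 ± 0.62 (edgeR adjusted p = 0.118). It was called when no filter on low counts was applied (-2.06, edgeR adjusted p = 0.0241). The replicate block called it lower as well (-1.73, edgeR adjusted p = 0.0147). With glucose in control cells the *Kcnf1* value was 1.24 ± 0.72 (edgeR adjusted p = 0.27), called with the replicate block (1.5, edgeR adjusted p = 9.85e-05). Over 18 alternatives, those on TPM among them, that value ran from 0.32 to 2.46.

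*Kcng4*, another silent subunit, was at 0 in all 5 knockout samples at low glucose and at 0, 0.401, 0, 0.335 and 0.604 CPM at high glucose. It rose with glucose in knockout cells (edgeR adjusted p = 0.0104), but the groups overlapped at 0. With each low-glucose sample set to 3 counts, the upper limit that a count of 0 allows, the high-glucose mean was 7.34-fold higher. That limit covers counting error alone and not the spread between samples. Only high-glucose samples held more than 8 counts of *Kcng4*. The gene thus passed the filter on low counts through the groups where it was high, and the call is not independent of that. *Kcns3*, also a silent subunit, was highest in replicate 2 of every group, at 1.22, 2.83, 7.32 and 7.02 CPM in control low, control high, knockout low and knockout high samples, and at no more than 1.03 CPM in any other sample. It was not called in any comparison of all samples. With the replicate block it was called higher with glucose in control cells (2.4, edgeR adjusted p = 0.014). The block also called it higher with the knockout at low glucose (2.36, edgeR adjusted p = 0.023). Of the 4 silent subunits tested, none was called with glucose in control cells, 2 were called higher with glucose in knockout cells, 1 lower with the knockout at low glucose and none at high glucose. In that order these were 0, 50, 25 and 0%, against 13.8, 23.8, 2.04 and 1.71% of all genes.

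Among the auxiliary subunits of voltage-gated channels, 7 of 12 were tested. *Kcnip1* (ENSMUSG00000053519.18) was at 278, 403 and 199 CPM in control cells at low glucose and at 178, 172, 170 and 186 CPM at high glucose. *Kcnip1* in knockout cells was at 328, 449, 226, 273 and 156 CPM at low glucose and at 181, 179, 164, 166 and 108 CPM at high glucose. High-glucose samples were below the low-glucose samples of their genotype, apart from knockout low-glucose replicate 5, and knockout high-glucose replicate 5 lay below the rest of its group. *Kcnip1* fell with glucose in knockout cells by 0.84 ± 0.23 (log2, SE, edgeR adjusted p = 0.0104). In control cells the value was -0.73 ± 0.28 (edgeR adjusted p = 0.082), called lower without control low-glucose replicate 3 (-0.95, adjusted p = 0.0414) and with the replicate block (-0.69, adjusted p = 0.00797). It was also called lower there with total counts alone (-1.1, edgeR adjusted p = 0.00631) and on log2(TPM + 0.1) (-1.48, limma adjusted p = 0.00144).

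*Kcnab3* was at 20.3, 11.6 and 16 CPM in control cells at low glucose and at 40.6, 28.1, 41.7 and 42.7 CPM at high glucose. *Kcnab3* in knockout cells was at 15.2, 6.39, 13.1, 14.1 and 4 CPM at low glucose and at 30.8, 33.6, 34.9, 44.3 and 25.1 CPM at high glucose. The groups did not overlap in either genotype. *Kcnab3* rose by 1.26 ± 0.36 in control cells and by 1.67 ± 0.29 in knockout cells (log2, SE, edgeR adjusted p = 0.0229 and 0.000365), the former lost without control low-glucose replicate 2 or 3 or high-glucose replicate 3 (edgeR adjusted p = 0.124, 0.0626 and 0.052). *Kcnab2*, a related β subunit at no more than 2.17 CPM in any sample, rose by 1.9 ± 0.52 and 1.43 ± 0.41 (edgeR adjusted p = 0.0192 and 0.013), the former lost without control low-glucose or high-glucose replicate 1 (edgeR adjusted p = 0.0887 and 0.0582).

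*Kcnip3*, a calcium-binding partner of A-type channels, was at 0.382, 1.01 and 0.383 CPM and at 0.143, 0.196, 0.185 and 0.719 CPM in control cells at low and high glucose, and at 0.503, 2.29, 0.837, 2.17 and 3.72 CPM and 0.257, 0.112, 0.123, 0.402 and 0.347 CPM in knockout cells. The knockout groups did not overlap, and the highest values were those of low-glucose replicates 2, 4 and 5. *Kcnip3* fell with glucose in knockout cells by 2.92 ± 0.59 (log2, SE, edgeR adjusted p = 0.00115), and in control cells it was called lower with the replicate block alone (-1.61, adjusted p = 0.033). *Kcnip3*, *Kcnk3* and *Kcnj3* were highest in the 3 knockout samples in which the sums of the α cell markers (6530, 9200 and 5330 CPM) and of *Ppy* (1620, 2710 and 5110 CPM) were highest too. Within knockout cells at low glucose, the δ cell and macrophage sums were instead lowest in replicate 2 (481 and 22.4 CPM), where *Kcnk3* and *Kcnj3* were highest. The part of those cells in these 3 results was not tested. *Kcnip4* rose in knockout cells by 1.00 ± 0.25 (edgeR adjusted p = 0.00594) and turned to -0.01 on log2(TPM + 0.1). Of the 7 auxiliary subunits tested, 2 were called higher with glucose in control cells, 3 higher and 2 lower in knockout cells, and none with the knockout at either concentration. With glucose these were 28.6 and 71.4%, against 13.8 and 23.8% of all genes.

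Channels activated by calcium or sodium had 11 of 12 genes tested. *Kcnma1* (ENSMUSG00000063142.16) was at 28.3, 29.2 and 38.6 CPM in control cells at low glucose and at 43.7, 42.9, 67.7 and 52.4 CPM at high glucose. *Kcnma1* in knockout cells was at 24, 32.1, 31, 32.3 and 19.7 CPM at low glucose and at 61.5, 69.6, 64.7, 59.6 and 55.1 CPM at high glucose. The groups did not overlap in either genotype. *Kcnma1* rose by 0.69 ± 0.19 in control cells, which turned to -0.18 on log2(TPM + 0.1), and by 1.16 ± 0.16 in knockout cells (log2, SE, edgeR adjusted p = 0.021 and 4.6e-05). The call in control cells was lost without low-glucose replicate 1 or 2 or high-glucose replicate 3 (edgeR adjusted p = 0.102, 0.104 and 0.0751).

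*Kcnn3*, a small-conductance calcium-activated channel, was at 3.9, 2.8 and 3.88 CPM in control cells at low glucose and at 20.5, 18.8, 11.6 and 8.55 CPM at high glucose. *Kcnn3* in knockout cells was at 5.44, 3.58, 6.03, 6.11 and 7.48 CPM at low glucose and at 19.6, 16.6, 24.5, 11.2 and 8.3 CPM at high glucose. High-glucose samples were above low-glucose samples in both genotypes, the libraries apart by the least. *Kcnn3* rose by 2.07 ± 0.37 in control cells and by 1.48 ± 0.29 in knockout cells (log2, SE, edgeR adjusted p = 0.00183 and 0.000936). *Kcnu1*, a pH-sensitive channel known from sperm, rose in knockout cells by 1.00 ± 0.23 (edgeR adjusted p = 0.00266) and turned to -0.07 on log2(TPM + 0.1).

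*Kcnmb2* was called in neither genotype by edgeR, and on log2(TPM + 0.1) it was called lower with glucose in control cells (-1.25, limma adjusted p = 0.0139) and in knockout cells (-1.02, limma adjusted p = 0.00965). *Kcnn1* was not called in the main fit. The replicate block called it lower with glucose in control and knockout cells (-0.93 and -0.61, edgeR adjusted p = 0.0209 and 0.0342). On log2(TPM + 0.1) it was lower in both too (-1.3 and -1.5, limma adjusted p = 0.0301 and 0.00257). Without the 3 libraries apart it was called lower in knockout cells (-1.05, edgeR adjusted p = 0.0151). Roles were set by symbol, so that of channels activated by calcium or sodium takes in the pH-sensitive *Kcnu1*, which was among the genes called in knockout cells. Of the 11 genes tested in this role, 2 were called higher with glucose in control cells, 3 higher in knockout cells and none with the knockout at either concentration. With glucose these were 18.2 and 27.3%, against 13.8 and 23.8% of all genes. *Kcnrg*, a regulator placed in no other role, was not called in any comparison of the main fit. With total counts alone it was called lower with glucose in control cells (-1.65, edgeR adjusted p = 0.0344). On log2(TPM + 0.1) it was called lower in control and knockout cells (-0.98 and -0.71, limma adjusted p = 0.00158 and 0.00244).

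The last comparison asks whether glucose acted differently in knockout than in control cells. The interaction gave a call for 0 of 69 channel genes by edgeR, against 0.00439% of all genes, with a median of 0.17 against -0.01. At an unadjusted p under 0.05 there were 6 (*Kcnf1*, *Kcnip4*, *Kcna2*, *Kcnu1*, *Kcnip3* and *Kcnj3*), against 1042 of the 22784 genes. DESeq2 called 1, *Kcnf1*, and so did edgeR without a filter on low counts and edgeR with the replicate block, where the calls over all genes were 34, 15 and 13 against 1 in the main fit. The *Kcnf1* interaction was 5.64 ± 1.09 (log2, SE, edgeR adjusted p = 0.235), 5.63 by DESeq2 (adjusted p = 0.00252), 5.67 without the filter (edgeR adjusted p = 0.0033) and 5.41 with the block (edgeR adjusted p = 0.00285), and over all 27 alternatives its adjusted p by edgeR, DESeq2 or limma ran from 0.00252 to 0.962. For *Kcna2* the interaction was 1.68 ± 0.67 and over all alternatives the adjusted p was 0.544 or more by any of these tools.

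Transcripts of the genes were compared as shares of the gene's counts. Over 21 genes with at least 100 counts in every sample of the 2 groups compared, 66 two-sided exact permutation tests gave 0 with a Benjamini-Hochberg adjusted p under 0.05. These sample numbers allow no p below 0.00794, or 0.524 after multiplying by 66, so a change in a single transcript could not have passed, and the count of 0 says nothing for or against one. For *Kcnh2*, the shorter transcript *Kcnh2-202* (3193 nt) held 2.35, 3.4 and 11.1% of the counts in control cells at low glucose and 10.9, 31.4, 36.8 and 12.8% at high glucose. *Kcnh2-202* in knockout cells held 2.11, 7.97, 7.91, 10.3 and 22.2% at low glucose and 25.5, 29.3, 27.6, 25.8 and 26.0% at high glucose. The share was high in every knockout sample at high glucose and overlapped between the control groups. The longer transcript (4221 nt) went from 88.5% ± 7.38 to 72.2% ± 1.77 in knockout cells (SD, n = 5 each, two-sided exact permutation p = 0.00794, adjusted p = 0.262 over the 66 tests) and from 93.3% ± 4.35 (n = 3) to 75.4% ± 13.7 (n = 4) in control cells (two-sided exact permutation p = 0.114, where 0.0286 is the smallest possible, adjusted p = 0.58).

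**Figure D4:**
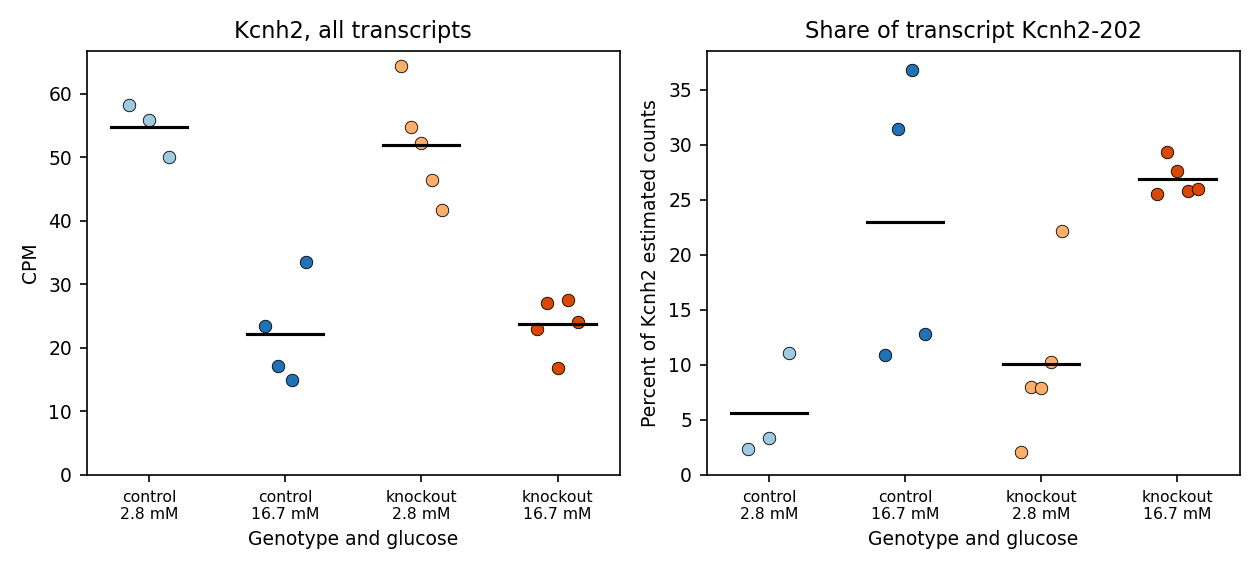
Left, CPM of *Kcnh2* over all transcripts, and right, the share of its estimated counts (percent) held by transcript *Kcnh2-202*, with a point per sample and a line at the group mean, by genotype and glucose concentration. *Kcnh2-202* held 25.5 to 29.3% in knockout cells at high glucose and 2.11 to 22.2% in knockout cells at low glucose, and the control groups overlapped.

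Transcripts annotated as retaining an intron held 6.7% ± 0.553 of the channel counts in control cells at low glucose (SD, n = 3), 5.82% ± 0.783 at high glucose (SD, n = 4), 7.93% ± 0.887 in knockout cells at low glucose and 6.83% ± 0.522 at high glucose (SD, n = 5 each). The lowest mean, of control cells at high glucose, and the highest, of knockout cells at low glucose, lay further apart than their SDs. The knockout mean was above the control mean at both concentrations, and the low-glucose mean was above the high-glucose mean in both genotypes. No test was run. For *Abcc8*, the protein-coding transcripts held 84.1% of the TPM. *Kcnab3* had the lowest such share of the 15 most abundant genes, 39.4%, and its retained-intron transcripts *Kcnab3-203* and *Kcnab3-202* held 45.6 and 4.47% of its counts over all samples. With protein-coding transcripts alone *Kcnab3* was still called higher with glucose, at 1.3 in control and 1.71 in knockout cells.

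The 96 genes lie on 19 chromosomes of GRCm39, with 11 pairs within 100 kb of each other. *Kcnj11* (chr7:45743377-45750188) and *Abcc8* (chr7:45753947-45829473) lie 3758 bases apart on the reverse strand. *Kcnj8* (chr6:142510563-142517830) and *Abcc9* (chr6:142533588-142648571) lie 15757 bases apart, so the genes of each ATP-sensitive channel are neighbours. The genes that fell with the knockout at low glucose, *Kcnj5* (chr9:32223328-32255691), *Kcna2* (chr3:107008237-107022321), *Kcnk10* (chr12:98395696-98544569) and *Kcnf1* (chr12:17222101-17226889), are not neighbours of one another. Exons of 49 channel genes overlap a gene on the opposite strand, those of 9 overlap a protein-coding gene on either strand, and since the strand used in counting is not given, reads of the overlapping genes cannot be told apart from theirs where sequences are shared.

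Partners of potassium channels outside the symbol rule formed a list of 10 genes, 8 of them tested. The list also took in *Kcnq1ot1*, a non-coding RNA and no channel partner, which was among the 8 and was not called in any comparison. *Lrrc55*, a γ subunit of the BK channel, was at 34.6, 14.2 and 70.5 CPM and at 31.9, 28.7, 109 and 32.6 CPM in control cells at low and high glucose. *Lrrc55* in knockout cells was at 0.0894, 0.282, 0.0318, 0.278 and 0.00999 CPM and at 0.0684, 0, 0.277, 0.188 and 0.0128 CPM. It was thus near 0 in every knockout sample. *Lrrc55* fell with the knockout, with log2 fold changes of -8.26 ± 0.82 (SE) at low and -8.83 ± 0.84 at high glucose (edgeR adjusted p = 9.01e-06 and 5.96e-06), the 1 of 8 called at either concentration. That 1 of 8 was 12.5%, against 2.04% of all genes at low and 1.71% at high glucose. With glucose, none of the 8 was called in control cells, against 13.8% of all genes. In knockout cells 2 fell, *Dpp10* (-1.08, edgeR adjusted p = 0.0361) and *Vapa* (-0.92, edgeR adjusted p = 0.0289). These 2 were 25%, against 23.8% of all genes called either way and 10.4% called lower. The medians of the list were 0.06 and -0.07 for glucose in control and knockout cells and 0.44 and 0.24 for the knockout at low and high glucose. Without *Kcnq1ot1* they were 0.01, -0.22, 0.42 and 0.27, and none was called for the interaction.

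Of 26 other electrical genes of the β cell, all tested, 7 were called with glucose in control cells (26.9%, against 13.8% of all genes, 4 higher and 3 lower) and 10 in knockout cells (38.5%, against 23.8% of all genes, 8 higher and 2 lower). Among those called in both were the sodium channel *Scn3a* (2.15 and 1.96) and the sodium pump subunit *Atp1b1* (0.80 and 0.70), both higher, and the calcium-permeable channel *Trpm2* (-1.44 and -1.04), lower. With the knockout, *Cftr*, a chloride channel, fell at low and high glucose (-6.82 and -6.27), with 3 of 26 called lower at low glucose (11.5%, against 1.78% of all genes, *Scn9a* among them at -1.07) and 2 of 26 at high glucose (7.69%, against 1.42%). None of the 26 was called for the interaction by edgeR.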

How the data were processed

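The authors pseudoaligned the reads with kallisto and deposited estimated counts and TPM per transcript. Members, lists and tests were chosen with earlier results of these data known. Conditions and replicate numbers came from the labels, which do not give the paper's batch factor, so none was fitted.

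Estimated counts of 142376 transcripts were summed per gene and rounded (47385513 to 82419400 per sample, TMM factors 0.75 to 1.29, prior count 2). After edgeR's expression filter, 22784 genes were fitted with 4 group means in edgeR 4.0.16 and tested in 5 contrasts: glucose in each genotype, the knockout at each concentration and the interaction. Calls needed a fold change above 1.5 with a Benjamini-Hochberg adjusted p below 0.05. Single values were compared by two-sided exact permutation tests. The SD between replicates includes the counting error. The fits were also run on counts simulated from the fitted spread, with differences added to a small part of the genes. Those counts held no replicate effect and no shift of the median gene, so these runs do not test the fits under such conditions.

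Alternatives were the size factors and Wald test of DESeq2 1.42.0, total counts alone, no filter, at least 1 CPM in 3 samples, protein-coding transcripts only, limma 3.58.1 on log2(TPM + 0.1) and log2(TPM + 1), the compared groups alone, the replicate number as a block, each sample left out, and the 3 libraries apart removed, which were picked from earlier results of these data. Deviations of same-numbered control samples correlated across genes at 0.199, 0.123 and 0.258, all above 0.1, and were taken to pair. In every other contrast at least 1 pair was lower. The highest value of any same-numbered pair was 0.354, between the control and knockout samples of replicate 4 at high glucose. Samples of different numbers were not correlated for comparison, so these values cannot show which samples share a source. The main fit held no term for the replicate number.

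Named genes are all called members, the genes of ATP-sensitive channels, 14 of the 15 members highest in TPM, those the paper names, and the lists: markers of β, α, δ, PP, acinar, ductal, endothelial, macrophage, stellate and mural, Schwann and erythroid cells, proliferation and sex, channel partners and other electrical genes. Coordinates are from GENCODE vM39 (GRCm39). Figures and tables used Python 3.11.15, pandas 2.3.3, numpy 2.4.6 and matplotlib 3.10.9. Protein sequences were not analysed.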

Additional observations from a re-analysis of the deposited data

Results flagged for a closer look

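In groups of 4 or 5 samples, a gene was flagged where 1 sample lay far from the others, by the gap to its nearest neighbour divided by the whole range of log2(CPM + 1). Of 92 groups of the 31 named channel genes, 5 were flagged, where chance flags about 1 in 20 groups, or 4.6 of these. Other channel genes were not checked in this way. In control cells at high glucose, replicate 2 was low for *Kcnab3* (28.1 CPM, gap 0.879 of the range), replicate 4 was high for *Kcnip3* (0.719 CPM, 0.889) and for *Kcnk3* (0.983 CPM, 0.841), and replicate 1 was low for *Kcnj3* (0.0613 CPM, 0.931). In knockout cells at high glucose, replicate 5 was low for *Kcnip1* (108 CPM, 0.809). Control replicate 4 and knockout replicate 5 were among the 3 libraries apart.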

How the results depend on the processing

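Over the named genes, 3118 alternative values were computed. Direction and side of the threshold held for 2812, the call was lost for 118 and gained for 45, the sign turned for 14 with a call on either side, and 129 changed sign without one. The 14 came with TPM: on log2(TPM + 0.1) and log2(TPM + 1), glucose in control cells gave -0.18 and -0.16 for *Kcnma1*, and glucose in knockout cells gave -0.01 and -0.02 for *Kcnip4*, -0.07 and -0.05 for *Kcnu1*, -0.13 and -0.12 for *Kcnk1*, -0.09 and -0.04 for *Kcnk13*, -0.04 and -0.07 for *Kcnb2*, and -0.64 and -0.64 for *Abcc8*. TPM keeps the shift of the median gene, but the cause was not tested.

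Counts of called channel genes stayed within 1.5 times their values with these exceptions. For glucose in control cells the count of 12 became 7 when the groups compared were fitted alone (fewer samples), 22 when these samples were fitted with the replicate block, where control high-glucose replicate 4 has no partner, and ran from 6 to 12 with 1 sample left out. For glucose in knockout cells the 23 became 10 on log2(TPM + 1). For the interaction the 0 became 1 with DESeq2, without a filter and with the replicate block (all genes from 1 to 34, 15 and 13). Where the replicate numbers were not taken to pair samples, the replicate block gave 6 for the knockout at high glucose, 8 for the knockout at low glucose and 23 for glucose in knockout cells, while all genes went from 389 to 517, from 464 to 1039 and from 5431 to 5324, and for these the cause was not tested. With 1 sample left out, the ranges were 3 to 6 for the knockout at high glucose, 4 to 4 at low glucose, 18 to 27 for glucose in knockout cells and 0 to 0 for the interaction. The interaction fitted on the compared groups alone is the same fit. The effect of depth was not tested.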
